A study of Mus musculus with 2 samples.

Results

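Haem is the iron-containing ring that carries oxygen in haemoglobin and electrons in cytochromes. Its synthesis begins in the mitochondrion, where glycine and succinyl-CoA are joined by a 5-aminolevulinate synthase, continues in the cytosol and returns to the mitochondrion for its last steps, in which iron is inserted into protoporphyrin. The first enzyme has a housekeeping form, encoded by Alas1 and used by most cells, and an erythroid form, encoded by Alas2 on the X chromosome and used by cells that make haemoglobin. Blood stem cells need haem mainly for their cytochromes and other haem enzymes, whereas red cell precursors raise the whole pathway.

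The 9 genes described here were chosen by name for their place in this pathway: Slc25a38, Alas1, Alas2, Alad, Uros, Urod, Cpox, Ppox and Fech. All 9 were found among the 28009 genes obtained by summing the authors' transcript values per gene, and all 9 were among the 37820 genes of the authors' gene table. The adult samples are 2 replicates of haematopoietic stem cells (HSCs, which renew every blood lineage), taken from bone marrow of the strain B6129SF1 at an age of 6 to 8 weeks, with no treatment named. The fetal HSCs came from the liver at embryonic day 14.5, per the labels' protocol, and separate fetal samples were not analysed here. Sort markers, the number of mice per library and the strain of the fetuses are not stated in the labels.

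Polyadenylated RNA was sequenced, and the values are FPKM, fragment counts scaled by feature length and by library total. Each table holds a single column headed BM (bone marrow) and a single column headed FL (fetal liver), with no replicate values. No difference below could therefore be set against the spread between libraries, no test was possible, and a gene called higher or lower is so in these values alone. The depth of the libraries is unknown. Genes that reach 1 FPKM in BM or in FL are called expressed. A relative log2 ratio is log2((BM + 0.1) / (FL + 0.1)), centred on the median gene that reaches 1 FPKM in each of the columns; that median was 0.01. In these bulk samples, fewer cells of a type and less RNA per cell cannot be told apart.

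The BM column of the gene table served as a second reading of the FL column of the transcript table, because the 2 columns hold nearly the same values although their headers differ. Chosen for that match, it cannot be taken as an independent measurement. A value called a check below therefore shows only where the 2 tables differ, not that a level in FL is right. Across 11077 genes at 1 FPKM or more in both, the median of the gene-table BM value over the transcript-table FL value was 1.05. For 8 of the 9 haem genes this ratio lay between 1.04 and 1.06. It was 1.56 for Fech, and 7.70% of the 11077 genes had a ratio that high or higher. Only 1 of the 15 annotated Fech transcripts was linked to the table, so the summed level of Fech may be too low in both columns. Adult and fetal are used below as the headers of the transcript table give them. Which headers are right was not tested. Hbb-y, an embryonic beta-like globin gene, was at 0.0813 FPKM in BM and 24.4 FPKM in FL of the transcript table. In the gene table it was at 25.9 FPKM in BM and 588 FPKM in FL. Hepatocyte markers summed to 3.30 FPKM in BM and 23.9 FPKM in FL of the transcript table. Their sums in the gene table were 24.6 FPKM in BM and 14.6 FPKM in FL. If the headers of the transcript table were exchanged, every adult and fetal direction given from it would turn round.

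The cells were first checked against marker genes. For scale, the 2-fold limit was passed downward in BM by 8.82% of the 12220 genes called expressed, and upward by 13.3%. All 9 HSC markers were expressed in both columns, of which 2 were at least 2-fold higher in BM and 0 lower (median relative log2 ratio 0.60). The higher ones were Ly6a, the Sca-1 gene, at 36.0 FPKM in BM and 6.62 FPKM in FL, and Meis1, a homeobox gene, at 162 FPKM in BM and 66.8 FPKM in FL. Within 2-fold were Kit, the stem cell factor receptor gene, at 181 FPKM in BM and 112 FPKM in FL, and Cd34, a progenitor surface protein gene, at 80.3 FPKM in BM and 116 FPKM in FL. The FL column also held RNA typical of other cells. Of 12 expressed erythroid markers, 11 were at least 2-fold lower in BM and none was higher. Their summed level was 505 FPKM in BM and 999 FPKM in FL, and the carbonic anhydrase gene Car2 alone took 469 FPKM of it in BM and 252 FPKM in FL. The BM column of the gene table gave a sum of only 575 FPKM as the check of FL. The globin genes in the sum had checks below their FL values: Hba-a2 at 10.1 against 185 FPKM, and Hbb-bt at 69.2 against 207 FPKM. Hbb-bs was at 35.7 against 150 FPKM, and Hba-a1 at 41.9 against 60.8 FPKM. The erythroid sum in FL is therefore uncertain. None of the erythroid markers was listed at 0 in either column. All 7 macrophage markers were lower in BM, with sums of 6.42 FPKM in BM and 187 FPKM in FL. Of 6 neutrophil and monocyte markers 5 were lower in BM, with sums of 94.1 FPKM in BM and 509 FPKM in FL. All 5 expressed hepatocyte markers were lower in BM, with sums of 3.30 FPKM in BM and 23.9 FPKM in FL. Of 5 endothelial markers 3 were lower in BM, with sums of 21.6 FPKM in BM and 34.6 FPKM in FL. Most markers of these 5 cell types were thus lower in BM, as were most of the haem genes described next, and their part in those differences was not tested. Megakaryocyte markers went the other way, with 4 of 5 higher in BM and sums of 741 FPKM in BM and 119 FPKM in FL.

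Regulatory sequences are shown first, for the gene with the widest difference and for the erythroid synthase gene. They come from RefSeq promoter windows on GRCm38.p6 and from GENCODE M21 transcripts on the same assembly, whereas the expression files were made on mm9, so only sequence and not position links them. The bases before the start of Cpox (chr16:58669958-58670207, plus strand) and of Alas2 (chrX:150547167-150547374, plus strand, ended before the first annotated exon) are printed with GATA-type letters in capitals. GATA1 is the transcription factor that drives many erythroid genes.
Cpox: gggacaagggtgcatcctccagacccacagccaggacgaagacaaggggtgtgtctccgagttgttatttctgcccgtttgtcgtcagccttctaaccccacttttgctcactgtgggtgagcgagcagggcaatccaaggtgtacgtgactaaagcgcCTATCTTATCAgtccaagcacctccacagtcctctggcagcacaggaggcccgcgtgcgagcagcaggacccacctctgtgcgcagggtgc
Alas2: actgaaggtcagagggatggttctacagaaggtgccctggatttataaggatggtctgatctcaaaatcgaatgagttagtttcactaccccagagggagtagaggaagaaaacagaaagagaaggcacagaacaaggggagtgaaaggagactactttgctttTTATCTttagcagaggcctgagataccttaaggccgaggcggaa

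The letters searched were GATAA or GATAG with an A or a T before them, on both strands, in the 250 bases before each start. Cpox held 2 matches on the minus strand, which overlap and begin 91 and 86 bases before its start. Alas2 held 1, beginning 86 bases before its start. Among the 8 genes searched, which have 11 annotated starts, only these and an internal start of Uros held any. Fech was not searched. Alas1 held none. Of 32817 promoter windows of that length, 26.6% held at least 1 match and 6.41% held at least 2. A match is a description of these letters and was not tested as a binding site.

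The Alas2 messenger carries a further control in its leader. An iron-responsive element is a short hairpin with the loop CAGTGN that iron regulatory proteins bind when iron is scarce, which blocks translation. A 17-base element (a C, a 5-base stem, the loop and the pairing stem) was searched in the leaders of coding transcripts, and 0.110% of 20899 genes held one. Among the 9 haem genes it was found in Alas2 alone, from base 90 of transcript Alas2-201, here with its loop in capitals and 4 bases on each side. FPKM measures the messenger and does not show whether it was translated.
Alas2 leader: ggttcgtcctCAGTGCagggcaaca

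Most genes of the pathway were lower in BM than in FL of the transcript table. Of the 9 genes, 6 were at least 2-fold lower in BM and 0 were at least 2-fold higher. Across all 12220 expressed genes, 8.82% were at least 2-fold lower and 13.3% at least 2-fold higher. The 6 include Alas2, which was listed at 0 in BM and has no ratio. It counts as expressed through FL alone, so its call as lower was fixed by the filter. Of the 8 genes with a ratio, 5 were at least 2-fold lower in BM. The count of 6 became 4 of 9 with a pseudocount of 1 FPKM, where Urod and Fech fell just short. It became 3 of 8 with the highest transcript of each gene alone. There Urod and Slc25a38 were inside 2-fold, and Alas2 did not count as expressed. The 8 genes other than Alas2 had a median relative log2 ratio of -1.03, beside a median of 0.02 over all expressed genes. Their summed level, with Alas2, was 206 FPKM in BM and 500.4 FPKM in FL. The direction came from 7 of the 8 genes with a ratio, Ppox being the exception when all its transcripts were summed.

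**Figure D1:**
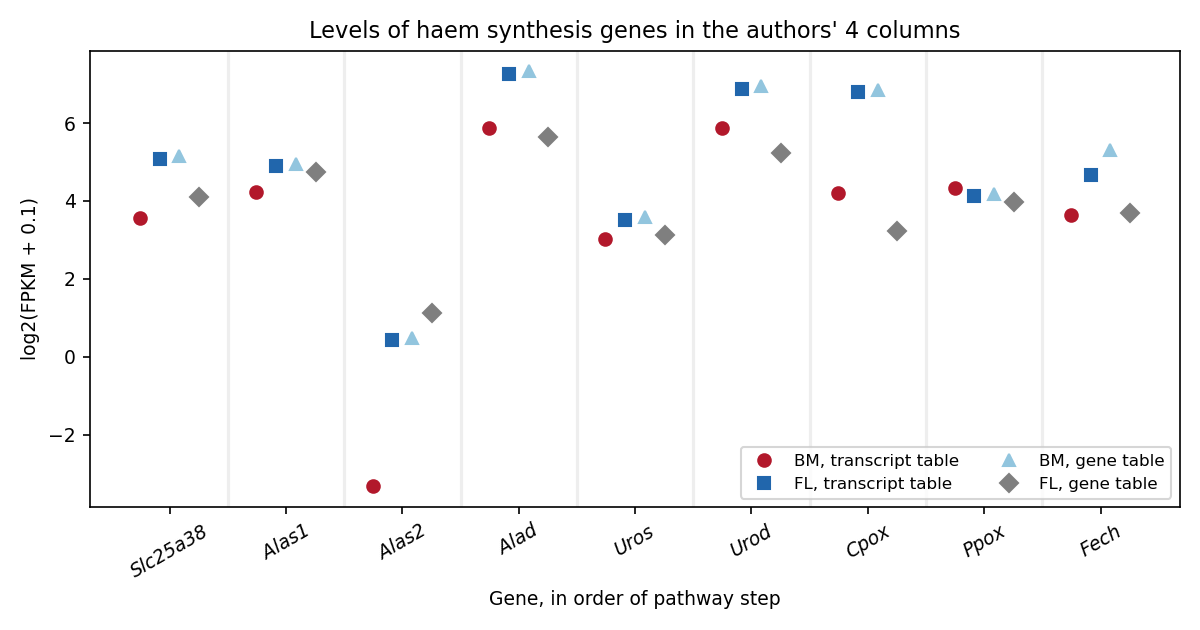
Level of each haem synthesis gene, as log2(FPKM + 0.1), in BM and FL of the transcript table (red circles, dark blue squares) and BM and FL of the gene table (light blue triangles, grey diamonds), with genes in pathway order and 1 value per column and no error. The dark blue and light blue points nearly coincide except for Fech, and the red point lies below the dark blue one for every gene but Ppox, with Alas2 at 0 FPKM in BM.

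The mitochondrial entry of the pathway was lower in BM. Slc25a38 (ENSMUSG00000032519, chromosome 9) encodes the carrier that brings glycine into the mitochondrion, and its loss causes sideroblastic anaemia in humans. It was at 11.8 FPKM in BM and 33.5 FPKM in FL, 2.85-fold lower in BM, and the gene-table check of FL read 35.6 FPKM. Of its 7 linked transcripts, the leading coding transcript Slc25a38-201 was at 7.55 FPKM in BM and 14.1 FPKM in FL. A second coding transcript, Slc25a38-202, was at 4.14e-07 FPKM in BM and 7.27 FPKM in FL. The gene was at least 2-fold lower as a sum, and its leading transcript taken alone was not (relative log2 ratio -0.86).

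The first enzyme was represented mainly by the housekeeping form. Alas1 (ENSMUSG00000032786, chromosome 9) was at 18.5 FPKM in BM and 29.6 FPKM in FL, a relative log2 ratio of -0.68 that is inside the 2-fold limit. Alas2 (ENSMUSG00000025270, chromosome X) was listed at 0 in BM and was at 1.25 FPKM in FL, with a check of 1.31 FPKM. Alas2 thus made up 0% of the summed Alas1 and Alas2 level in BM and 4.06% in FL, or 8.94% in FL with the highest transcript of each gene alone. Its main transcript, Alas2-201, held 0.865 FPKM in FL. All 4 Alas2 transcripts were listed at 0 in BM. The level of Alas2 in FL is close to the limit for calling a gene expressed. The opposite strand carries the DNA repair gene Apex2, whose exons cover 15.3% of Alas2-201. Apex2 itself was at 5.29 FPKM in BM and 6.38 FPKM in FL. The labels do not state whether strand was used in counting.

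The Alas1 difference lay outside its coding transcripts. Protein-coding transcripts of Alas1 summed to 11.4 FPKM in BM and 11.9 FPKM in FL, a relative log2 ratio of -0.03. The leading one, Alas1-201, was 1.14 times as high in BM as in FL and made up 54.0% of the gene's level in BM and 29.8% in FL. Alas1-205, annotated as a target of nonsense-mediated decay (the removal of messengers with an early stop), was at 0.898 FPKM in BM and 6.67 FPKM in FL. The non-coding transcript Alas1-206 was at 4.54 FPKM in BM and 9.80 FPKM in FL. Coding transcripts therefore carried 61.8% of the Alas1 level in BM and 40.2% in FL. Splitting reads among overlapping transcripts rests on the authors' model, and these shares have no error.

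Alad (ENSMUSG00000028393, chromosome 4) encodes the cytosolic enzyme that joins aminolevulinate molecules to porphobilinogen. It was the most abundant of the 9 genes in FL and close behind Urod in BM. Alad was at 58.4 FPKM in BM and 153 FPKM in FL, 2.62-fold lower in BM, with a check of 160 FPKM. A single coding transcript, Alad-201, carried 97.8% of the level in BM and 97.7% in FL, so the difference did not depend on how transcripts were summed. Relative to Alas1, Alad was 3.15 times as abundant in BM and 5.17 times in FL.

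Uros and Urod, which close and trim the porphyrin ring in the cytosol, differed in level and in ratio. Uros (ENSMUSG00000030979, chromosome 7) encodes uroporphyrinogen III synthase, whose deficiency in humans causes congenital erythropoietic porphyria. It was the lowest of the genes with a value in both columns, at 8.09 FPKM in BM and 11.4 FPKM in FL, and its relative log2 ratio of -0.49 was inside the 2-fold limit. Its coding transcripts were not all lower in BM: Uros-203 was at 3.15 FPKM in BM and 6.10 FPKM in FL. Uros-201 was at 2.87 FPKM in BM and 2.95 FPKM in FL. Uros-202 was at 1.20 FPKM in BM and 0.0613 FPKM in FL.

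Urod (ENSMUSG00000028684, chromosome 4) encodes uroporphyrinogen decarboxylase. It was at 58.9 FPKM in BM and 118 FPKM in FL, with a check of 123 FPKM. Its relative log2 ratio of -1.01 lies just inside the call, and that of Alas1, at -0.68, is the nearest one outside it. The coding transcript Urod-201 was at 39.5 FPKM in BM and 70.3 FPKM in FL, a 1.78-fold difference. The transcript Urod-203, which retains an intron, was at 11.4 FPKM in BM and 40.5 FPKM in FL, a 3.54-fold difference. With coding transcripts alone, Urod had a ratio of -0.79, and with the gene-table check in place of FL one of -0.94; neither is past 2-fold.

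Cpox showed the widest difference among the genes with a ratio. Cpox (ENSMUSG00000022742, chromosome 16) encodes coproporphyrinogen oxidase, which acts in the space between the mitochondrial membranes. It was at 18.2 FPKM in BM and 111 FPKM in FL, 6.10-fold lower in BM, with a check of 116 FPKM. Only 2.59% of expressed genes had a lower ratio. All of this level rests on 1 linked transcript, Cpox-201. Cpox stood at 0.982 times the level of Alas1 in BM and at 3.75 times that level in FL, so the pair changed its proportions between the columns. Its promoter letters are those printed above, with the overlapping GATA-type matches.

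**Figure D2:**
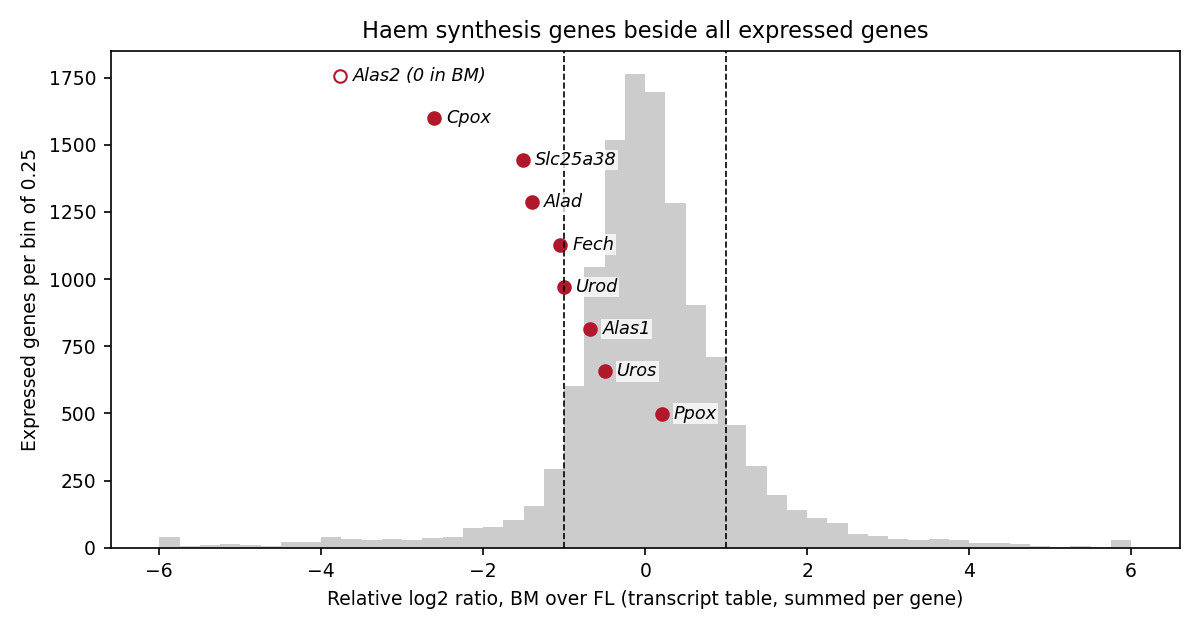
Relative log2 ratio of BM over FL in the transcript table for the 9 haem synthesis genes (red points, at arbitrary heights) over the histogram of 12220 expressed genes (grey, with values beyond 6 in either direction placed in the end bins), dashed lines marking 2-fold. Of these genes, 5 with a ratio lie at or left of the lower line, Cpox farthest at -2.61, and Alas2 (open point) is placed by the added 0.1 FPKM because it is listed at 0 in BM.

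Ppox was near even in total and differed in its transcripts. Ppox (ENSMUSG00000062729, chromosome 1) encodes protoporphyrinogen oxidase, the enzyme before iron insertion. It was at 19.9 FPKM in BM and 17.2 FPKM in FL, with a relative log2 ratio of 0.20. Its only coding transcript with a value, Ppox-201, was at 6.59 FPKM in BM and 13.0 FPKM in FL, 1.97-fold lower in BM. Transcripts that retain an intron summed to 13.4 FPKM in BM and 4.18 FPKM in FL. They made up 67.0% of the Ppox level in BM and 24.2% in FL.

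Each of the 5 intron-retaining Ppox transcripts was higher in BM. Ppox-205 was at 4.82 FPKM in BM and 0.863 FPKM in FL. Ppox-206 was at 2.17 FPKM in BM and 0.123 FPKM in FL. Ppox-207, at 4.11 FPKM in BM and 2.59 FPKM in FL, is the only Ppox transcript that shares exon bases (17.9% of them) with B4galt3 on the opposite strand, and B4galt3 itself was at 9.24 FPKM in BM and 22.6 FPKM in FL.

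Intron retention did not shift alike in the other haem genes. Of the 4 genes with intron-retaining transcripts and a value in both columns, 1, Ppox, had a share at least 10 percentage points higher in BM. Over 3951 genes compared in this way, 12.8% did so and 5.42% had a share at least 10 points lower. The share of Ppox was 42.7 points higher in BM, and 0.430% of the genes had a share higher in BM by as much or more. The share was 8.90% in BM and 4.14% in FL for Alas1. It was 10.8% in BM and 10.6% in FL for Uros, and 29.0% in BM and 37.7% in FL for Urod. The median share over the 3951 genes was 5.30% in BM and 2.70% in FL.

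**Figure D3:**
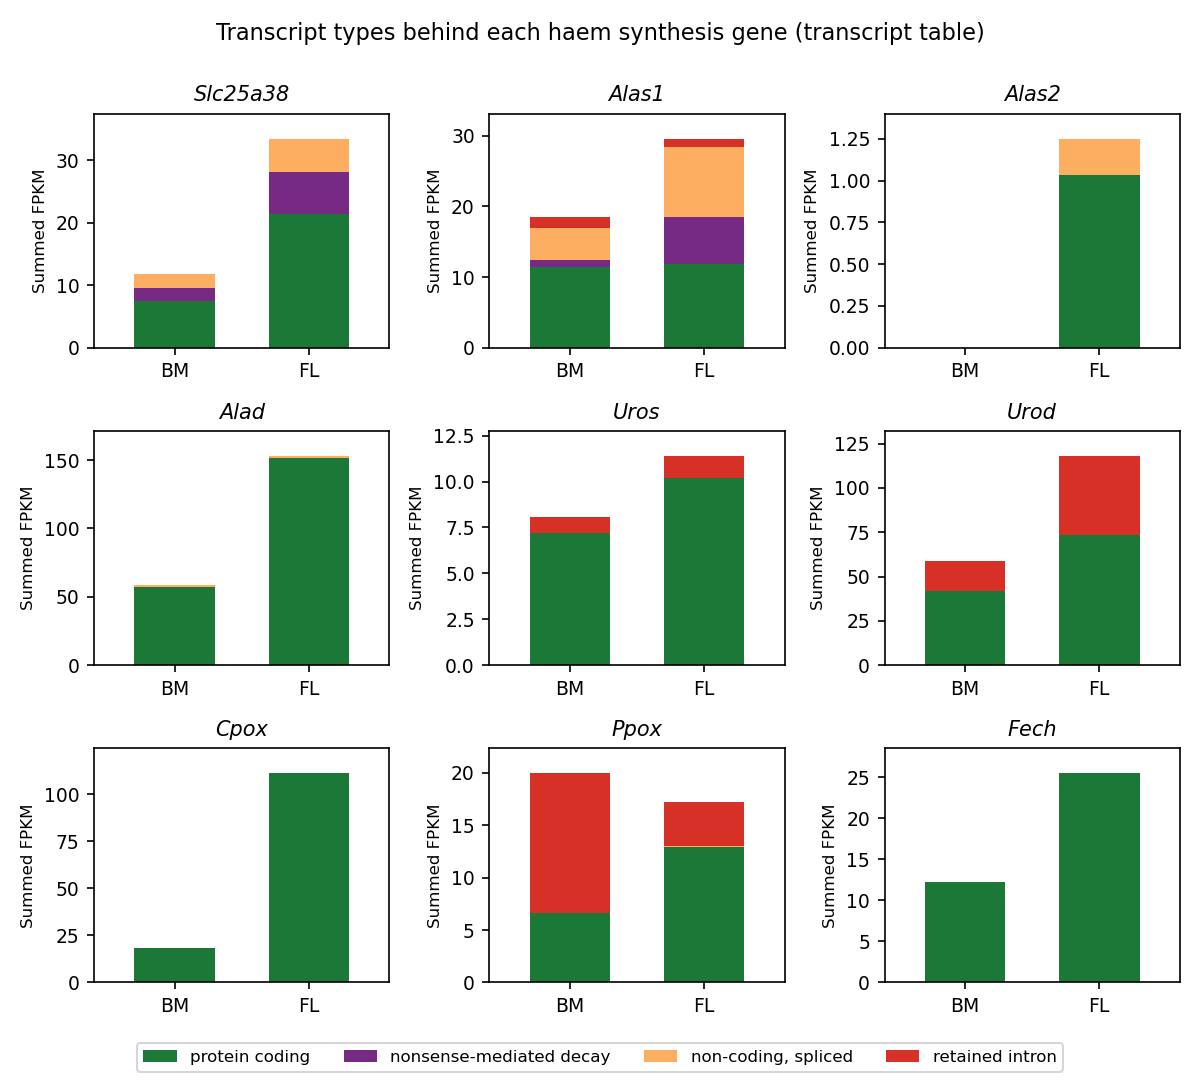
Summed FPKM of protein-coding (green), nonsense-mediated decay (purple), other spliced non-coding (orange) and intron-retaining (red) transcripts of each haem synthesis gene in BM and FL of the transcript table, each panel with its own axis from 0 and no error. The green part is near equal for Alas1 (11.4 FPKM in BM, 11.9 FPKM in FL) and smaller in BM for Ppox (6.59 FPKM in BM, 13.0 FPKM in FL), while the red part of Ppox is larger in BM.

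Fech (ENSMUSG00000024588, chromosome 18) encodes ferrochelatase, the iron-sulphur enzyme that puts iron into protoporphyrin. It was at 12.3 FPKM in BM and 25.5 FPKM in FL, 2.07-fold lower in BM. The check of FL was higher, at 39.8 FPKM, as described above, so the level of the whole gene is uncertain and the ratio holds for transcript Fech-201.

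Counting coding transcripts alone, 4 of the 8 genes with a ratio were at least 2-fold lower in BM (Slc25a38, Alad, Cpox and Fech) and 0 were higher, with a median of -0.98. Among 11075 genes with expressed coding transcripts, 8.53% were at least 2-fold lower and 12.4% at least 2-fold higher. Urod and Ppox were then just outside the call, at -0.79 and -0.94. This count was chosen after the transcript values were seen.

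The order of levels differed between the stages. In BM it ran from Urod and Alad, at 58.9 and 58.4 FPKM, to Ppox, Alas1 and Cpox between 18.2 and 19.9 FPKM, then Fech, Slc25a38 and Uros, and last Alas2. In FL it ran from Alad at 153 FPKM, Urod and Cpox, to Slc25a38, Alas1 and Fech between 25.5 and 33.5 FPKM, then Ppox, Uros and Alas2. The place of Fech is uncertain, because the gene-table check of FL put it at 39.8 FPKM, above Slc25a38 (35.6 FPKM) and Alas1 (30.8 FPKM). Leaving out Alas2, the highest gene was 7.27 times the lowest in BM and 13.4 times in FL. Neighbours in these orders cannot be told apart without replicate values. FPKM is scaled by length, which allows levels of different genes to be set side by side.

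The FL column of the gene table matches no other column, and its values are set beside the BM column of that table as a description. All 5 endothelial markers were highest there, with a summed level of 39.2 FPKM in BM and 1580 FPKM in FL of the gene table, and the part of those cells in the values was not tested. Of the 9 haem genes, 4 were at least 2-fold higher in BM and 0 lower, where 12.3% of 13834 expressed genes were higher and 23.6% lower, after centring on a median log2 ratio of 0.24. Cpox was at 116 FPKM in BM and 9.34 FPKM in FL. Alad was at 160 FPKM in BM and 49.7 FPKM in FL, Urod at 123 FPKM in BM and 37.5 FPKM in FL, and Fech at 39.8 FPKM in BM and 12.9 FPKM in FL. Alas1 (30.8 FPKM in BM, 26.7 FPKM in FL) and Ppox (18.1 FPKM in BM, 15.5 FPKM in FL) were close. This BM column is the one that matches FL of the transcript table. Cpox was high in these 2 matching columns and low in both others, and whether the matching columns are adult or fetal was not tested. Alas2 stayed low in all 4 columns, and its highest value was 2.10 FPKM in FL of the gene table.

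Precursor supply was examined next in the transcript table. The counts for this and the following lists stand beside the 8.82% of all expressed genes that were at least 2-fold lower and the 13.3% that were at least 2-fold higher. Besides Slc25a38, 7 genes that supply glycine or succinyl-CoA were expressed, of which 3 were at least 2-fold lower in BM and 0 higher (median -0.97). Shmt2, the mitochondrial serine hydroxymethyltransferase that makes glycine, was at 66.4 FPKM in BM and 138 FPKM in FL. The glycine transporter gene Slc6a9 was at 2.23 FPKM in BM and 6.08 FPKM in FL. The lower count includes the succinyl-CoA ligase gene Suclg1, whose linked transcripts sum to 2.69 FPKM in FL against a check of 89.8 FPKM, so its ratio does not describe the gene. Ogdh, a subunit of the complex that makes succinyl-CoA, was at 59.1 FPKM in BM and 46.4 FPKM in FL.

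Of 14 expressed genes for transport of haem and its precursors, 2 were lower in BM and 0 higher (median -0.21), which is near the shares over all genes. Tmem14c, which moves protoporphyrinogen into the mitochondrial matrix in red cell precursors, was at 80.1 FPKM in BM and 210 FPKM in FL. Tspo2, an erythroid membrane protein gene, was at 1.28 FPKM in BM and 20.9 FPKM in FL. The mitochondrial iron importer genes Slc25a37 (15.8 FPKM in BM, 11.4 FPKM in FL) and Slc25a28 (25.9 FPKM in BM, 22.9 FPKM in FL) were within 2-fold. Clpx, a mitochondrial unfoldase that activates aminolevulinate synthase, was at 16.5 FPKM in both columns.

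Of 10 genes for iron uptake, storage and sensing, 4 were lower in BM and 0 higher (median -0.61). The transferrin receptor gene Tfrc was at 11.8 FPKM in BM and 42.8 FPKM in FL. Steap3, the reductase of transferrin endosomes, was at 11.2 FPKM in BM and 46.2 FPKM in FL, and the iron exporter gene Slc40a1 at 1.65 FPKM in BM and 25.9 FPKM in FL. The ferritin gene Fth1, at 811 FPKM in BM and 1212 FPKM in FL, was within 2-fold. Of 9 iron-sulphur cluster genes 1 was lower and 0 higher (median -0.42), which is also near the shares over all genes. That gene was Glrx5, a mitochondrial glutaredoxin needed for haem synthesis in red cells, at 81.3 FPKM in BM and 239 FPKM in FL.

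Of 8 genes for haem breakdown and haem sensing, 3 were lower in BM and 0 higher (median -0.55). Hmox1, the inducible haem oxygenase, was at 14.1 FPKM in BM and 84.0 FPKM in FL. Macrophages, whose markers were lower in BM, express Hmox1 strongly, and their part in this difference was not tested. Blvrb, a biliverdin reductase of red cells, was at 27.4 FPKM in BM and 125 FPKM in FL. The haem-binding protein gene Hebp1 was at 19.9 FPKM in BM and 92.5 FPKM in FL. Nfe2l2, which encodes the activator NRF2 of Hmox1, was at 31.8 FPKM in BM and 27.9 FPKM in FL.

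Of 13 expressed genes for proteins that carry haem, 10 were lower in BM and 0 higher (median -4.16). Of these 10, 4 are globin genes that are also among the erythroid markers, and 1, the myeloperoxidase gene Mpo, is a neutrophil marker whose own ratio is the median of the list. Several of its members are globin genes so alike in sequence that reads cannot be assigned to one of them with confidence. The respiratory members differed less: Cyc1, the haem subunit of complex III, was at 84.0 FPKM in BM and 176 FPKM in FL. Catalase, Cat, was at 40.6 FPKM in BM and 52.5 FPKM in FL. Ptgs1, cyclooxygenase 1, was at 69.6 FPKM in BM and 36.7 FPKM in FL.

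Of 7 erythroid transcription factor genes, 2 were lower in BM and 1 higher (median 0.14), with the higher count near the share over all genes. Klf1 (7.82 FPKM in BM, 82.8 FPKM in FL) and Gata1 (24.4 FPKM in BM, 51.4 FPKM in FL) were the lower ones. Gata2, at 165 FPKM in BM and 68.3 FPKM in FL, was the higher one.

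**Figure D4:**
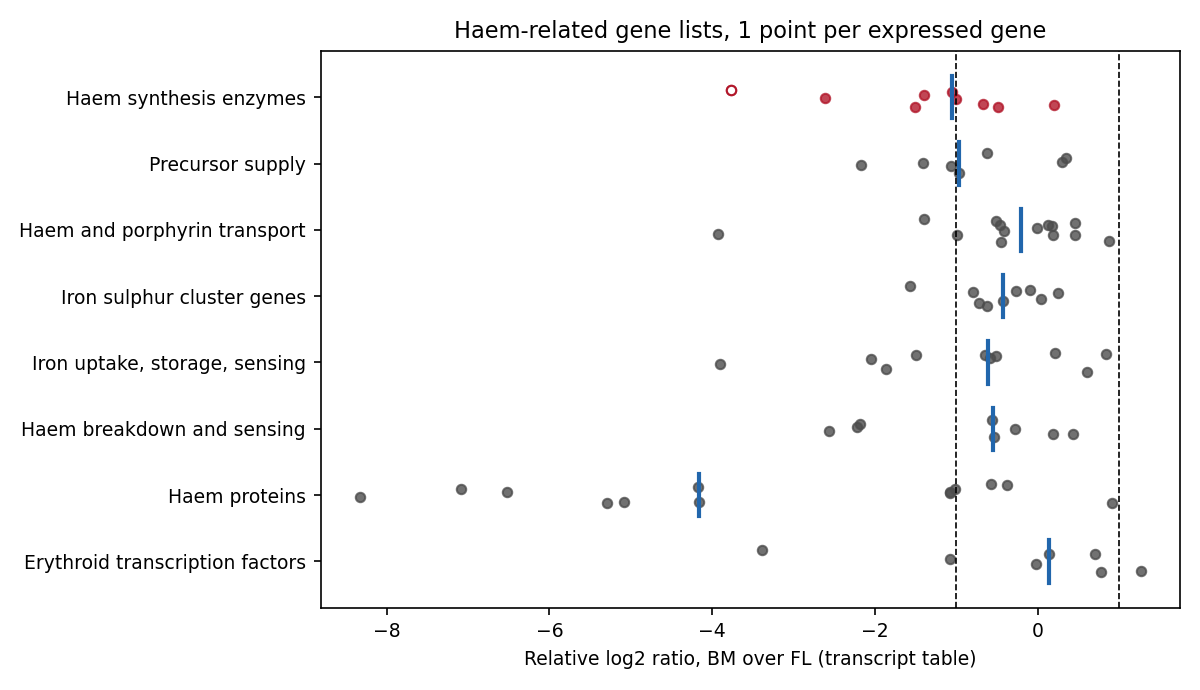
Relative log2 ratio of BM over FL in the transcript table for the haem synthesis genes (red, Alas2 open because it is listed at 0 in BM) and for 7 lists of related genes (grey), 1 point per expressed gene, with the median of each list as a blue bar and 2-fold as dashed lines; Slc25a38 is drawn with the enzymes only. The medians are -1.05 for the 9 enzyme genes with Alas2, -0.97 for precursor supply, -0.21 for transport and -4.16 for haem proteins.

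The genes most like Alas1 and Alas2 in level were found by the Euclidean distance of log2(FPKM + 0.1) over 3 columns (BM and FL of the transcript table and BM of the gene table) among 12321 other genes. The last 2 of these columns hold nearly the same values, so the distance rests on little more than 1 level in each stage. Nearest to Alas1 were Icam4, a red cell adhesion protein gene (18.5 FPKM in BM, 29.1 FPKM in FL, distance 0.024), Eef1akmt1, which encodes a methyltransferase of an elongation factor (0.039), and Pole, the catalytic subunit gene of DNA polymerase epsilon (0.052). Nearest to Alas2 were Gdpd5 (0.019), A630091E08Rik (0.032) and Gm11971 (0.044), all listed at 0 in BM and at about the same level as Alas2 in FL.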

How the data were processed

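The authors deposited FPKM values, in the unit the table names give, per gene and per transcript, each with 1 column headed BM and 1 headed FL. TopHat, Cufflinks, featureCounts of Subread, edgeR and the build mm9 are named, with no role or version, in the submitters' processing notes. Each column was taken as the authors' value for a stage, without SD or n. BM was assigned to the 2 adult samples by its header alone and FL to fetal liver by the protocol, although the BM column of the gene table holds, for most genes, the FL values of the transcript table.

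Transcripts were linked to genes and symbols by Ensembl identifier through GENCODE M21. Of 87641 transcripts 76507 were linked, 50 of them to the 9 genes, and the unlinked carried 10.9% of the FPKM in BM and 10.4% in FL. Values were summed per gene. Reads of overlapping transcripts are shared by a model, so transcript values are estimates. The transcript types are those of GENCODE.

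The pseudocount was 0.1 FPKM, the limit for an expressed gene 1 FPKM and the call 2-fold. The ratio and call steps were tested on simulated data, with large changes and little noise put into highly expressed transcripts. That test did not cover the summing per gene, changes at low levels or ratios near 2-fold. Promoter sequences are from RefSeq (GRCm38.p6), with 8 of the 9 genes searched and Fech left out.

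The 9 genes, the lists and the markers were chosen with earlier results of these data known. The genes named are the 9, members of the fixed lists and the 3 nearest to Alas1 and to Alas2; overlapping genes were named after the values were seen. Abcb10, Cyba, Zfpm1 and Ahsp were not analysed here. Python 3.11.15, numpy 2.4.6, pandas 2.3.3 and matplotlib 3.10.9 were used.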

Additional observations from a re-analysis of the deposited data

How the results depend on the processing

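No paired analysis was possible because the columns carry no replicate values, and for the same reason no replicate could be left out. A ratio counted as moved when it changed by 1.5 times or more. The 6 genes at least 2-fold lower in BM include Alas2. They became 3 of 8 with only the highest transcript of each gene, 4 with a pseudocount of 1 FPKM and 2 at a 3-fold limit. None of the 9 was at least 2-fold higher under any alternative tried. Among all expressed genes, 1078 lower and 1621 higher became 616 and 883 at a filter of 5 FPKM, 2330 and 2885 at 1.5-fold, and 596 and 792 at 3-fold, and the lower count was 1891 with no filter. The share of Alas2 in FL, 4.06%, was 8.94% with the highest transcript alone. The median ratio of the 8 genes ranged from -1.14 to -0.91. Cpox ranged from -2.63 to -2.54 and Alad from -1.42 to -1.33. Alas1, not called, ranged from -0.70 to 0.22, Ppox from -0.94 to 0.26 and Slc25a38 from -1.53 to -0.86, with the values farthest from the reported ones given by the choice of transcripts. Urod ranged from -1.03 to -0.79 and Fech from -1.57 to -0.999, so that both crossed the 2-fold limit. The unknown depth leaves the precision of all values, and of Alas2 above all, undefined.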

Other observations

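In the gene table, whose FL column matches no other column, some further genes around haem and iron stood at unlike levels. They were picked for their values, and other genes of the lists were close. Fth1 was at 1273 FPKM in BM and 981 FPKM in FL, Clpx at 16.9 and 18.4 FPKM, and Hmox1 at 111 and 108 FPKM. Across all 13834 expressed genes of that table, 12.3% were at least 2-fold higher in BM and 23.6% lower. Tspo2 was at 21.3 FPKM in BM and listed at 0 in FL, and Steap3 was at 48.1 FPKM in BM and 2.95 FPKM in FL. Flvcr2, from the list of haem transport genes, was at 0.0607 FPKM in BM and 2.72 FPKM in FL. Hbb-y, an embryonic beta-like globin gene, was at 25.9 FPKM in BM and 588 FPKM in FL. These are values of single columns, with no test.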
